A study of Mus musculus with 12 samples.

Results

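The genes of the cardiac thin filament and its troponins were followed in cultured heart muscle cells. They are Actc1, Tnnt2, Tnni3, Tnni1, Tnnc1, Tpm1, Tmod1, Lmod2, Lmod3 and Nebl, 10 of the 22915 genes measured. These genes were chosen by name, with earlier results of these data known. Primary cardiomyocytes of adult male C57/Bl6 mice, 12 weeks of age, were cultured and stimulated for 24 h under normoxia. They received murine leukemia inhibitory factor (mLIF), which acts through its receptor LIFR, murine oncostatin M (mOSM), which acts through OSMR, or a human-like oncostatin M (hlOSM), a murine protein whose AB loop was exchanged for the human one so that it acts through both receptors in mouse cells. The labels give 25 ng/mL for each recombinant protein, and control cells received the same volume of PBS alone. The study's methods name a somewhat lower concentration for the cytokines. RNA of 3 libraries per condition, 12 in all, was sequenced, and gene expression is given as normalized counts.

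The thin filament is a double strand of actin along which tropomyosin lies. At regular steps it carries the troponin complex, made of the calcium sensor troponin C, the inhibitory subunit troponin I and the tropomyosin-binding subunit troponin T. Calcium bound to troponin C moves tropomyosin aside, so that myosin can reach actin and the sarcomere shortens. Tropomodulin caps the pointed end of the filament and leiomodins add actin there, which sets filament length, whereas nebulette ties the filament to the Z-disc in heart muscle.

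Promoters of these genes are shown first because thin filament genes share short motifs that muscle transcription factors recognize, among them the M-CAT element of TEAD factors, the CArG box of serum response factor and the GATA motif. Both cytokines signal through STAT factors, whose motif was searched as well. RefSeq promoters (GRCm38.p6) were found for 9 of the 10 genes, all but Lmod3, with 14 windows of the 250 bases before a transcription start. The windows below are those of cardiac actin, of troponin T and C, and of nebulette, each with its motif matches, in either orientation, set in capitals and with the sequence written on the strand of the gene. The windows of Tnnt2 and Tnnc1 lie outside the annotated gene. The Actc1 window lies wholly within the annotated gene. Of its 250 bases, 12 are annotated as 5′ untranslated exon, with no exon annotated in the rest. Both Nebl windows lie within introns, before starts that RefSeq places inside the gene, and whether transcription begins there was not tested.
Actc1, chr2:114052876-114053125, minus strand, CArG box: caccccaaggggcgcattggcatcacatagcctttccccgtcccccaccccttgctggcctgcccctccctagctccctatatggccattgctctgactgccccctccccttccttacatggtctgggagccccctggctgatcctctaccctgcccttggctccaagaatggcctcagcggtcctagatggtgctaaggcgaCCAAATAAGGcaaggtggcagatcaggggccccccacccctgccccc
Tnnt2, chr1:135836084-135836333, plus strand, GATA and M-CAT: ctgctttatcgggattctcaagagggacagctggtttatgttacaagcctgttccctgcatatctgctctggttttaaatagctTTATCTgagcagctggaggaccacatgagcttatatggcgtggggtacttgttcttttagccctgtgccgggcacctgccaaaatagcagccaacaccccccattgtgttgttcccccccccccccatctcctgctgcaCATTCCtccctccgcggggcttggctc
Tnnc1, chr14:31208062-31208311, plus strand, M-CAT: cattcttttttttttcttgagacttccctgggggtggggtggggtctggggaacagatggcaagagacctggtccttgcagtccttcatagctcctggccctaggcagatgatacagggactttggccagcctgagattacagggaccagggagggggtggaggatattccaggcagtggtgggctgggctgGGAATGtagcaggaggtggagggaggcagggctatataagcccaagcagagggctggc
Nebl, chr2:17670166-17670415, minus strand, M-CAT and GATA: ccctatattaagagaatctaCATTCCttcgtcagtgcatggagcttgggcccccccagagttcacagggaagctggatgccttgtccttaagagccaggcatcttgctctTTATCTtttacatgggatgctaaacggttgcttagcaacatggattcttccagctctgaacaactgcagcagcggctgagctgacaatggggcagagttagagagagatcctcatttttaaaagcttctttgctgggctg
Nebl, chr2:17462857-17463106, minus strand, CArG box: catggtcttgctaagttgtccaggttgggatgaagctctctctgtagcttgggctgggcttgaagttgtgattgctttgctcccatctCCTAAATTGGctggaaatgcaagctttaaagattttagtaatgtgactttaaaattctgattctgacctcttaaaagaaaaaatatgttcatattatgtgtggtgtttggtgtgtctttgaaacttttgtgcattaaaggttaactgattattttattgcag

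The M-CAT letters CATTCC, searched on both strands, were found in 5 of the 14 windows (Nebl, Tmod1, Tnnc1, Tnnt2 and Tpm1) and in 12.6% of all 32851 RefSeq promoter windows of the same length. The Tmod1 window lies wholly in annotated untranslated exon, as do 193 of the 250 bases of the Tpm1 window. The windows of Tnni1 overlap each other, so that the 14 are not all separate sequences. The GATA motif, searched as AGATAA, was found in 3 of the 14 (Nebl with 2 windows and Tnnt2) and in 9.99% of all windows. The CArG box was found in 2 of the 14 (Actc1 and Nebl) and in 1.47% of all windows. The STAT motif TTCNNNGAA was in none of the 14 and in 7.02% of all windows, the letters TATAAA in none and in 12.4%, and the MEF2 box in none and in 1.69%. The matches of different motifs did not overlap in the windows shown. A match is a string of letters and not a measured binding site, and none of these shares was tested.

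The 12 libraries held between 2745748 and 2911891 normalized counts each, a normalized scale from which the reads behind a single value cannot be read. Scaling factors recomputed by a trimmed mean lay between 0.974 and 1.02. Cardiomyocyte markers were abundant in every library, with a sum over 10 genes of 14096 to 17630 normalized counts, while the 3 of 6 skeletal muscle markers that were in the table summed to 0 to 6. The labels do not say whether the 3 libraries of a condition came from separate mice or cultures. The p-values therefore measure the spread between these libraries, which may be technical. An effect of the replicate number may also have been taken out of the values, which would make this spread too small. Since the samples were bulk RNA, fewer cardiomyocytes and less thin filament RNA per cardiomyocyte cannot be told apart.

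Among the 10 genes, levels per kilobase of exon spanned a wide range in PBS-treated cells. On this scale, Lmod2 (leiomodin 2), Actc1 (cardiac actin) and Tnnc1 (troponin C) had the highest levels, with means of 610.3 ± 39.5, 600.1 ± 34.7 and 531 ± 20.3 normalized counts per kilobase (SD, n = 3). Tnni3 (cardiac troponin I), Tnnt2 (cardiac troponin T) and Tpm1 (α-tropomyosin) followed with 304 ± 26.7, 244 ± 12.5 and 227 ± 11.8, and Lmod3, Tmod1 and Nebl with 133 ± 19.9, 117 ± 10.7 and 112 ± 6.95. Tnni1, the slow skeletal troponin I that the fetal heart uses, had 1.11 ± 0.481. Within these spreads Lmod2 and Actc1 overlapped, as did Tnnt2 with Tpm1 and Lmod3 with Tmod1 and Nebl. The order also depended on the length taken. Divided by the longest transcript instead, Tnnc1 came first with 767, Tnni3 followed with 688, Actc1 with 659 and Lmod2 with 610.3, while Tnni1 stayed last with 1.86.

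Thin filament transcripts were lower with each cytokine than with PBS. The sum over the 10 genes was 9189 ± 541 normalized counts with PBS (SD, n = 3), 7705 ± 471 with mLIF, 7078 ± 657 with mOSM and 6836 ± 156 with hlOSM. As a share of all normalized counts of a library, this was 0.321 ± 0.0136% with PBS, 0.274 ± 0.0182% after mLIF, 0.251 ± 0.0163% after mOSM and 0.244 ± 0.0109% after hlOSM, and no library of a cytokine reached the lowest PBS library. Of the 10 genes, 9 passed the filter on low values and were tested with limma, all but Tnni1. With mLIF, 4 of the 9 were lower at an adjusted p under 0.05 and none was higher, against 4.44% of all 13184 tested genes lower and 5.47% higher. With mOSM, 8 of 9 were lower and none higher, against 15.8% and 15.4% of all genes. With hlOSM, all 9 were lower, against 19.8% lower and 18.2% higher of all genes. Without a mean-variance trend in the fit the counts of lower genes were 1, 5 and 5, and Actc1, Tnni3, Tpm1 and Tmod1 no longer passed with hlOSM. Nebl, Tnnt2, Tnni3 and Tnnc1 were lower with all 3 cytokines, as were 3.69% of all tested genes. With each cytokine the log2 fold changes of all 9 were negative, so that no threshold could give a higher gene.

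The sizes were moderate. The median log2 fold change of the 9 genes was −0.25 for mLIF, −0.32 for mOSM and −0.31 for hlOSM, where the median of all tested genes was 0.00037, −0.0043 and −0.0052. Libraries of the cytokine lay wholly below those of PBS in 5 of the 9 genes with mLIF (15.6% of all tested genes), in 6 with mOSM (19.9%) and in 9 with hlOSM (24.3%). The mean was highest with PBS in each of the 9 genes, and it decreased in the order PBS, mLIF, mOSM, hlOSM in 5 of them, Actc1, Tnnt2, Tpm1, Tmod1 and Nebl. Without mLIF replicate 3 the count with mLIF was 1 in place of 4, which was Nebl, and the count with mOSM was 5 in place of 8 without PBS replicate 3 and also without mOSM replicate 1.

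**Figure D1:**
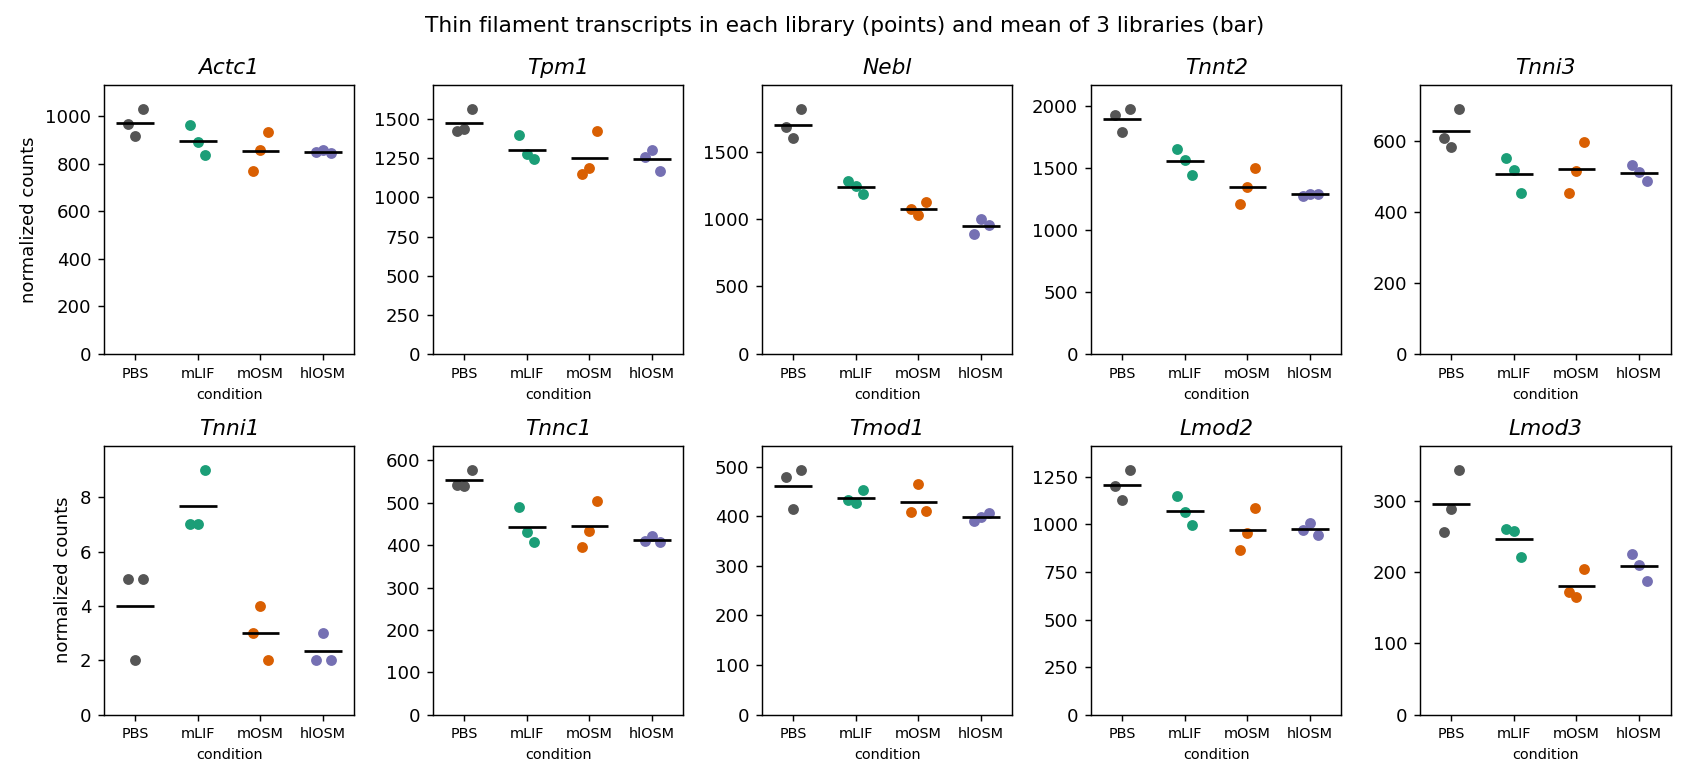
Normalized counts of the 10 thin filament genes in each of the 12 libraries (points, 3 per condition) with the mean of the condition (bar); the vertical axes start at 0 and differ between genes. PBS libraries are the highest in most panels, Nebl forms 4 separate steps, and Tnni1 stays at 9 or below in every library.

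Nebl encodes nebulette, the small nebulin relative at the Z-disc end of the cardiac thin filament (ENSMUSG00000053702, chr2:17343909-17731464, minus strand, mm10), and it had the largest decrease of the 9 genes with mLIF and with hlOSM. It stood at 1686, 1604 and 1814 normalized counts with PBS, 1284, 1246 and 1187 after mLIF, 1074, 1027 and 1130 after mOSM, and 892, 998 and 955 after hlOSM. The 4 conditions did not overlap, and each step from PBS through mLIF and mOSM to hlOSM was downward. The log2 fold change against PBS was −0.46 ± 0.058 (SE) with mLIF (adjusted p = 4.91e-05), −0.66 ± 0.058 with mOSM (adjusted p = 1.22e-08) and −0.84 ± 0.058 with hlOSM (adjusted p = 1.72e-10). These calls held with any single library left out. Of all tested genes, 4.51%, 5.91% and 4.68% had a lower log2 fold change than Nebl in these comparisons. Of 8661 genes with a mean of at least 50 normalized counts, Prickle1 and Zfp275 had the most similar set of 3 log2 fold changes, with largest differences from Nebl of 0.030 and 0.034, which is a description of 3 values per gene only.

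Actc1 encodes cardiac α-actin, the backbone of the filament (ENSMUSG00000068614, chr2:114047282-114053548, minus strand), and it changed little. Its normalized counts were 967, 917 and 1029 with PBS, 962, 891 and 836 after mLIF, 769, 856 and 935 after mOSM, and 848, 857 and 846 after hlOSM. The hlOSM libraries lay below all PBS libraries, whereas those of mLIF and mOSM overlapped them. With mOSM and with hlOSM the log2 fold change was −0.19 ± 0.066 (adjusted p = 0.0322 and 0.0269), and with mLIF it was −0.12 ± 0.066 (adjusted p = 0.278). The call with mOSM was lost without PBS replicate 1, PBS replicate 3, mOSM replicate 1 or mOSM replicate 2 (adjusted p up to 0.2099). The call with hlOSM was lost without PBS replicate 1 or 3 or any single hlOSM library (adjusted p up to 0.128).

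Tpm1, the α-tropomyosin that lies along actin and blocks its myosin sites at rest (chr9:67022590-67049406, minus strand), had 1425, 1438 and 1563 normalized counts with PBS, 1397, 1276 and 1245 after mLIF, 1147, 1186 and 1423 after mOSM, and 1261, 1306 and 1167 after hlOSM. Every cytokine library lay below the lowest PBS library, by 2 normalized counts in mOSM replicate 3. The log2 fold change was −0.24 ± 0.070 with mOSM (adjusted p = 0.0103) and −0.25 ± 0.070 with hlOSM (adjusted p = 0.00781), and −0.18 ± 0.070 with mLIF did not pass (adjusted p = 0.111). The mOSM call was lost without PBS replicate 3, mOSM replicate 1 or mOSM replicate 2 (adjusted p from 0.0515 to 0.0732).

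Of the troponin genes, Tnnt2 had the lowest log2 fold change with mOSM and with hlOSM. It encodes cardiac troponin T, the subunit that anchors the complex on tropomyosin (ENSMUSG00000026414, chr1:135836354-135852260, plus strand). Its normalized counts were 1924, 1786 and 1972 with PBS, 1652, 1562 and 1443 after mLIF, 1208, 1343 and 1496 after mOSM, and 1276, 1292 and 1292 after hlOSM. All cytokine libraries lay below all PBS libraries, and all hlOSM libraries below all mLIF libraries. The log2 fold change was −0.29 ± 0.065 with mLIF (adjusted p = 0.00728), −0.49 ± 0.065 with mOSM (adjusted p = 4.02e-06) and −0.56 ± 0.065 with hlOSM (adjusted p = 5.86e-07). Without mLIF replicate 3, the value with mLIF was −0.24 (adjusted p = 0.0664), and the other calls held with any library left out.

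Tnnc1, the calcium sensor troponin C of heart and slow skeletal muscle (chr14:31208312-31211729, plus strand), stood at 542, 539 and 577 normalized counts with PBS, 489, 431 and 408 after mLIF, 396, 434 and 503 after mOSM, and 409, 421 and 407 after hlOSM. No cytokine library reached a PBS library. It was lower by a log2 fold change of −0.32 ± 0.076 with mLIF (adjusted p = 0.00909), −0.32 ± 0.076 with mOSM (adjusted p = 0.00238) and −0.42 ± 0.076 with hlOSM (adjusted p = 0.000133). The mLIF call was lost without mLIF replicate 3 (−0.27, adjusted p = 0.0742).

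Tnni3, the cardiac troponin I that inhibits contraction until calcium rises (chr7:4518305-4524229, minus strand), had 608, 584 and 689 normalized counts with PBS, 552, 517 and 452 after mLIF, 452, 516 and 598 after mOSM, and 533, 512 and 487 after hlOSM. The mLIF and hlOSM libraries lay below those of PBS, whereas mOSM replicate 3 lay within their range. Its log2 fold changes were close to each other, −0.31 ± 0.086 with mLIF (adjusted p = 0.0257), −0.27 ± 0.086 with mOSM (adjusted p = 0.01995) and −0.29 ± 0.086 with hlOSM (adjusted p = 0.01004). Without PBS replicate 3 all 3 calls were lost (adjusted p = 0.142, 0.118 and 0.0659). The mLIF call was also lost without mLIF replicate 2 (0.0533) or mLIF replicate 3 (0.171), and the mOSM call without mOSM replicate 1 (0.151). Of its exonic bases, 4.17% overlap Dnaaf3 on the same strand, which had a median of 7 normalized counts over the libraries.

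Tnni1, the slow skeletal troponin I (chr1:135779434-135810989, plus strand), was too low to be tested. Its normalized counts were 5, 2 and 5 with PBS, 7, 7 and 9 after mLIF, 3, 4 and 2 after mOSM, and 2, 3 and 2 after hlOSM. The mLIF libraries lay above all others, at values where the rounding to whole numbers matters. Divided by exonic length, Tnni1 made up 0.360 ± 0.145% of Tnni1 plus Tnni3 with PBS (SD, n = 3), 0.873 ± 0.222% after mLIF, 0.337 ± 0.131% after mOSM and 0.261 ± 0.0643% after hlOSM. The exact permutation p of the difference from PBS (two-sided) was 0.1 with mLIF, the smallest that 3 against 3 libraries can give, 0.7 with mOSM and 0.4 with hlOSM.

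At the pointed end of the filament, both leiomodins were lower with mOSM and with hlOSM. Lmod3, a leiomodin best known from skeletal muscle (ENSMUSG00000044086, chr6:97238534-97252759, minus strand), had 256, 288 and 343 normalized counts with PBS, 261, 258 and 221 after mLIF, 172, 165 and 204 after mOSM, and 226, 210.0 and 188 after hlOSM. The mOSM and hlOSM libraries lay below all PBS libraries and the mLIF libraries overlapped them. It was the gene of the 9 with the largest decrease with mOSM, −0.71 ± 0.10 (adjusted p = 1.17e-05). It was also lower with hlOSM, −0.50 ± 0.10 (adjusted p = 0.000472), and −0.25 ± 0.10 with mLIF did not pass (adjusted p = 0.113). With PBS replicate 1 left out, the value with mLIF was −0.35 (adjusted p = 0.0368).

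Lmod2, the leiomodin that elongates cardiac thin filaments (chr6:24597762-24605414, plus strand), stood at 1204, 1129 and 1285 normalized counts with PBS, 1151, 1066 and 995 after mLIF, 865, 953 and 1088 after mOSM, and 973, 1005 and 942 after hlOSM. Libraries of mOSM and hlOSM lay below those of PBS and mLIF replicate 1 lay within their range. It was lower by −0.32 ± 0.071 with mOSM (adjusted p = 0.00135) and −0.31 ± 0.071 with hlOSM (adjusted p = 0.00155), and had −0.17 ± 0.071 with mLIF (adjusted p = 0.126).

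Tmod1, the tropomodulin that caps the pointed end (chr4:46038935-46116032, plus strand), had 479, 414 and 493 normalized counts with PBS, 433, 426 and 452 after mLIF, 409, 465 and 410.0 after mOSM, and 391, 399 and 407 after hlOSM. The hlOSM libraries lay below the others, while PBS, mLIF and mOSM overlapped. Its log2 fold change passed with hlOSM, −0.21 ± 0.068 (adjusted p = 0.0198), and not with mLIF, −0.08 ± 0.068 (adjusted p = 0.511), or mOSM, −0.11 ± 0.068 (adjusted p = 0.242). The hlOSM call was lost without PBS replicate 1, PBS replicate 3 or hlOSM replicate 1 (adjusted p from 0.0603 to 0.107). The value of Tmod1 is uncertain, since 32.6% of its exonic bases overlap Tstd2 on the other strand, which had 185 to 247 normalized counts, and the strand setting of the counting is not given in the sources used here.

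**Figure D2:**
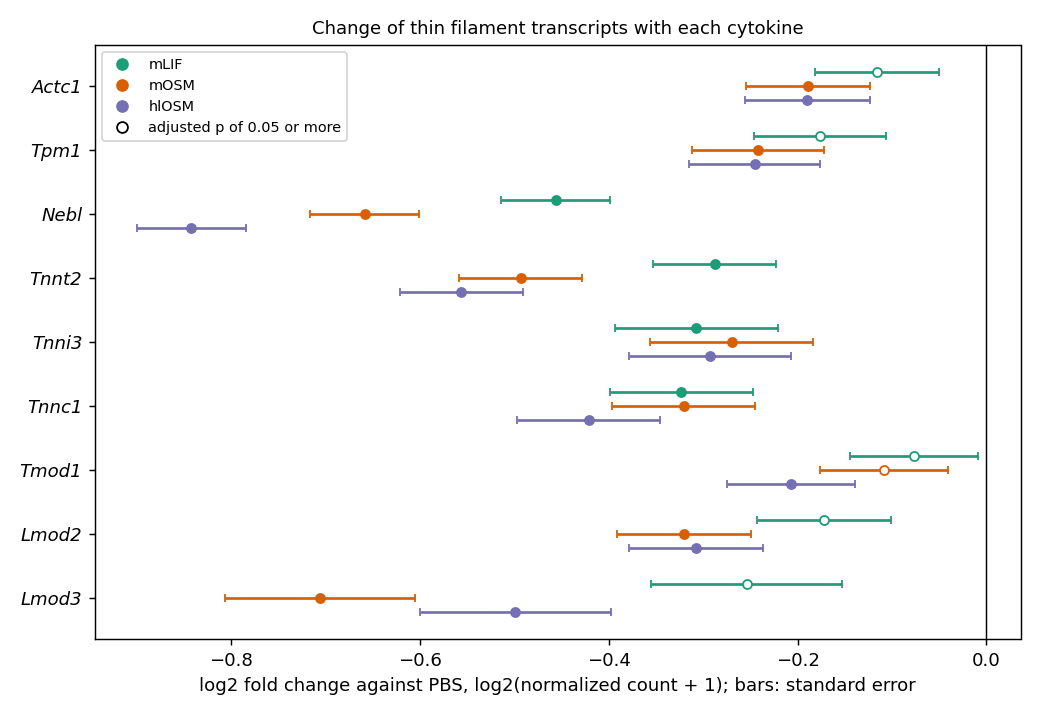
Log2 fold change of the 9 tested thin filament genes against PBS with mLIF, mOSM and hlOSM (points, 3 libraries per condition) with the standard error (bars) on the log2(normalized count + 1) scale; filled points passed an adjusted p under 0.05. All 27 points lie below 0, from −0.08 for Tmod1 with mLIF to −0.84 for Nebl with hlOSM.

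The proportion between the thin filament genes was also compared. A ratio to Actc1 within each library does not depend on how libraries were scaled to each other, and the log2 ratio of Tnnt2 to Actc1 was 0.99, 0.96 and 0.94 with PBS, 0.78, 0.81 and 0.79 after mLIF, 0.65, 0.65 and 0.68 after mOSM, and 0.59, 0.59 and 0.61 after hlOSM. The 4 conditions were separate, with an SD between libraries of 0.012 to 0.027. A replicate effect taken out gene by gene would alter such ratios and could make this SD too small. Whether that was done is not given in the sources used here. Relative to PBS, the mean ratio was −0.17 for mLIF, −0.30 for mOSM and −0.37 for hlOSM, each at an exact permutation p of 0.1 (two-sided, n = 3 against 3), the smallest possible.

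The log2 ratio of Nebl to Actc1 was 0.80, 0.81 and 0.82 with PBS, 0.42, 0.48 and 0.51 after mLIF, 0.48, 0.26 and 0.27 after mOSM, and 0.07, 0.22 and 0.17 after hlOSM. The hlOSM libraries were the lowest, and mLIF and mOSM overlapped on this scale. Relative to PBS, the mean was −0.34, −0.47 and −0.65 (exact permutation p = 0.1 each, the smallest possible for n = 3). Lmod3 to Actc1 was −0.52 relative to PBS with mOSM (exact permutation p = 0.1), and −0.14 with mLIF and −0.31 with hlOSM (exact permutation p = 0.3 and 0.2). Tnnc1 to Actc1 was −0.21, −0.13 and −0.23 with mLIF, mOSM and hlOSM, each at an exact permutation p of 0.1. The ratios of Tpm1 and Tmod1 to Actc1 were between −0.06 and 0.08 relative to PBS (exact permutation p from 0.2 to 0.9). These are levels relative to Actc1, and they do not show that any single gene was constant.

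**Figure D3:**
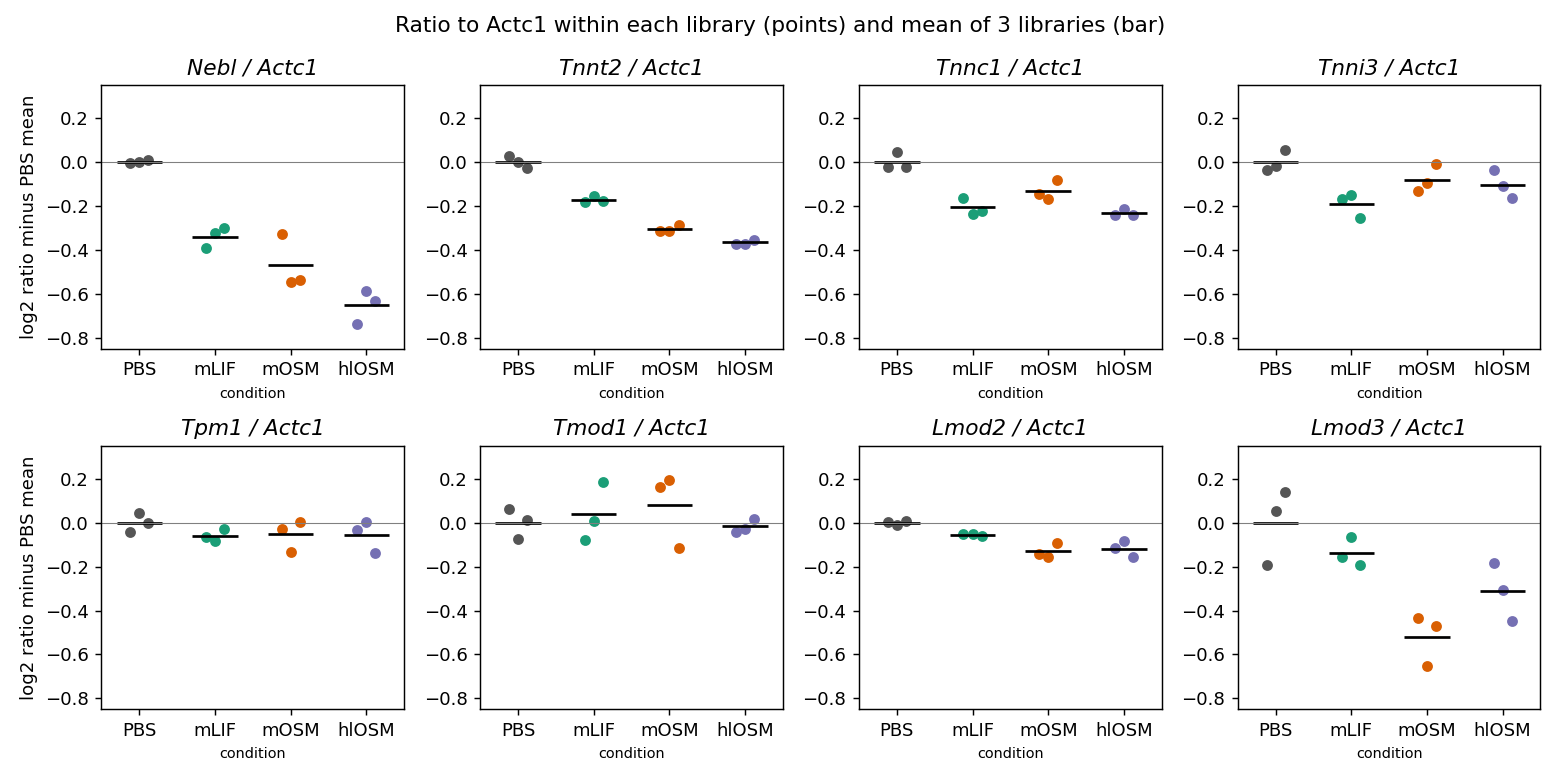
Log2 ratio of each thin filament gene to Actc1 within a library, minus the mean of the PBS libraries (points, 3 libraries per condition; bar, mean). Tnnt2 forms 4 separate steps down to −0.37 with hlOSM and Nebl reaches −0.65, whereas Tpm1 and Tmod1 scatter around 0.

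The cytokines were then compared with each other at the same labelled dose and time, in 3 pairs and 27 gene comparisons with p-values adjusted over all tested genes. Against mLIF, mOSM gave lower levels in 3 of the 9 genes and higher levels in none, against 5.76% and 6.05% of all genes. These were Lmod3 (−0.45 ± 0.10, adjusted p = 0.00383), Tnnt2 (−0.21 ± 0.065, adjusted p = 0.0421) and Nebl (−0.20 ± 0.058, adjusted p = 0.0224). Only Lmod3 held with any library left out, and the count was 1 without mLIF replicate 1 or 2 and without mOSM replicate 1 or 2. The adjusted p of Tnnt2 then rose to 0.238 and that of Nebl to 0.113 at most. With the replicate number in the limma fit, Tnnt2 did not pass (adjusted p = 0.059). Lmod2 did not pass (−0.15 ± 0.071, adjusted p = 0.201), and without mOSM replicate 3 it did (−0.24, adjusted p = 0.0222). Tnni3 and Tnnc1 had 95% intervals for mOSM minus mLIF of −0.14 to 0.22 and −0.15 to 0.16.

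Against mLIF, hlOSM gave lower levels of 2 of the 9 genes, Tnnt2 (−0.27 ± 0.065, adjusted p = 0.00584) and Nebl (−0.39 ± 0.058, adjusted p = 4.38e-05), where 9.22% of all genes were lower and 7.42% higher. Both held with any library left out. Lmod3 had −0.24 ± 0.10 and did not pass (adjusted p = 0.106).

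The native murine protein and the form with the human AB loop, which differ by the exchanged loop and by signaling through LIFR, did not differ in any of the 9 genes past the threshold, against 0.106% of all genes lower with hlOSM and 0 higher. At an unadjusted p under 0.05, limma gave 1 of the 9, Nebl, against 7.49% of all genes, so that this count is near the share of all genes. Its difference between hlOSM and mOSM was −0.18 (95% interval −0.30 to −0.06, adjusted p = 0.394), and the 2 conditions did not overlap. Lmod3 leaned the other way, at 0.21 (95% interval −0.0028 to 0.42, adjusted p = 0.67). The 95% intervals of the other 7 genes lay between −0.26 and 0.16. Actc1 had −0.0005 (95% interval −0.14 to 0.14). Tmod1 and Nebl were the genes whose hlOSM libraries lay wholly below those of mOSM, 2 of 9 against 5.62% of all genes.

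If the separate changes with mLIF and mOSM added up, the change with hlOSM would equal their sum on the log2 scale. For 8 of the 9 genes hlOSM fell short of that sum, with a median difference of 0.22, where the median of all genes was −0.0067. The latter takes in raised and lowered genes, whose shortfalls have opposite signs. In lists given below, the median difference was 0.15 for thick filament genes, 0.13 for other cardiomyocyte genes and 0.09 for titin and the Z-disc. It was 0.02 for isoforms and relatives and −0.009 for capping and assembly genes. Whether the thin filament genes differ from these lists was not tested. By limma's test of this difference none of the 9 passed, against 0.167% of all genes, while 5 had an unadjusted p under 0.05, Tnnt2, Tnni3, Tnnc1, Lmod3 and Nebl, against 11.5% of all genes. The difference was 0.46 ± 0.14 for Lmod3 (adjusted p = 0.198) and 0.27 ± 0.082 for Nebl (adjusted p = 0.176). All comparisons with PBS use the same 3 PBS libraries, so that a high or low PBS library moves these differences together.

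Isoforms and relatives of the thin filament genes went in both directions. Of 17 listed, 16 were in the table and 12 were tested. With mLIF, none was lower and 1 was higher, with mOSM 7 were lower and 2 higher, and with hlOSM 8 were lower and 2 higher. Their median log2 fold changes were −0.04, −0.23 and −0.25. Of all genes, 4.44%, 15.8% and 19.8% were lower in the same order, and 5.47%, 15.4% and 18.2% higher.

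Skeletal α-actin, Acta1, which the fetal heart and the stressed adult heart also use, rose with all 3 cytokines. It had 354, 303 and 323 normalized counts with PBS, 420.0, 378 and 384 after mLIF, 372, 420.0 and 420.0 after mOSM, and 390.0, 444 and 465 after hlOSM. Each cytokine library lay above each PBS library. The log2 fold change was 0.27 ± 0.075 with mLIF (adjusted p = 0.0241), 0.31 ± 0.075 with mOSM (adjusted p = 0.00322) and 0.40 ± 0.075 with hlOSM (adjusted p = 0.00019). Of the sarcomeric α-actin transcripts per length, Acta1 made up 26.2 ± 1.52% with PBS, 31.7 ± 0.872% with mLIF, 33.3 ± 1.05% with mOSM and 34.9 ± 2.05% with hlOSM (exact permutation p = 0.1 for each cytokine, the smallest possible for n = 3 against 3). The rest was Actc1, and 0.437% of 75-base windows in the Acta1 transcript are shared with another gene.

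Of the tropomyosins, Tpm3 rose and Tpm2 decreased with mOSM and with hlOSM. Tpm3, a tropomyosin of slow muscle that non-muscle cells also use, had 188 to 213 normalized counts with PBS, 203 to 207 with mLIF, 258 to 308 with mOSM and 270.0 to 302 with hlOSM. Its log2 fold change was 0.47 ± 0.075 with mOSM (adjusted p = 4.19e-05) and 0.53 ± 0.075 with hlOSM (adjusted p = 6.9e-06), and 0.03 with mLIF (adjusted p = 0.83). Tpm2, β-tropomyosin, had 79 to 94 with PBS and 13 to 31 with hlOSM, a log2 fold change of −1.89 ± 0.25 (adjusted p = 2.8e-06), with −1.23 ± 0.25 with mOSM (adjusted p = 0.000585) and −0.36 with mLIF (adjusted p = 0.375). Tpm4 was lower by −0.21 with mOSM (adjusted p = 0.00604) and by −0.22 with hlOSM (adjusted p = 0.00289).

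Acta2, the smooth muscle α-actin, decreased with mOSM (−1.43 ± 0.13, adjusted p = 2.07e-08) and hlOSM (−1.45 ± 0.13, adjusted p = 1.1e-08) and had −0.29 with mLIF (adjusted p = 0.155). Markers of smooth muscle cells and pericytes moved with Acta2 and Tpm2. Of 6 listed, 5 were tested. None passed with mLIF, and all 5 were lower with mOSM and with hlOSM, against 15.8% and 19.8% of all genes. The sum of the 6 was 495 to 632 normalized counts with PBS, 469 to 498 with mLIF, 299 to 329 with mOSM and 277 to 297 with hlOSM. Their part in the changes of Acta2 and Tpm2 was not tested.

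In the nebulin family, Neb, the giant nebulin of skeletal muscle that the heart has in small amounts, was lower with mOSM (−0.72 ± 0.097, adjusted p = 5.31e-06) and with hlOSM (−0.65 ± 0.097, adjusted p = 1.42e-05) and had 0.01 with mLIF (adjusted p = 0.966). Lasp1 was lower with mOSM (−0.26, adjusted p = 0.0204) and hlOSM (−0.27, adjusted p = 0.0134). Nrap, which helps to build myofibrils, did not pass in any comparison with PBS, with values from −0.07 to −0.04 at 2139 to 2487 normalized counts. Among tropomodulins, Tmod4, the skeletal muscle form, was lower with mOSM (−0.50, adjusted p = 0.00291) and hlOSM (−0.70, adjusted p = 7.7e-05), and Tmod3 with hlOSM (−0.16, adjusted p = 0.0473).

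**Figure D4:**
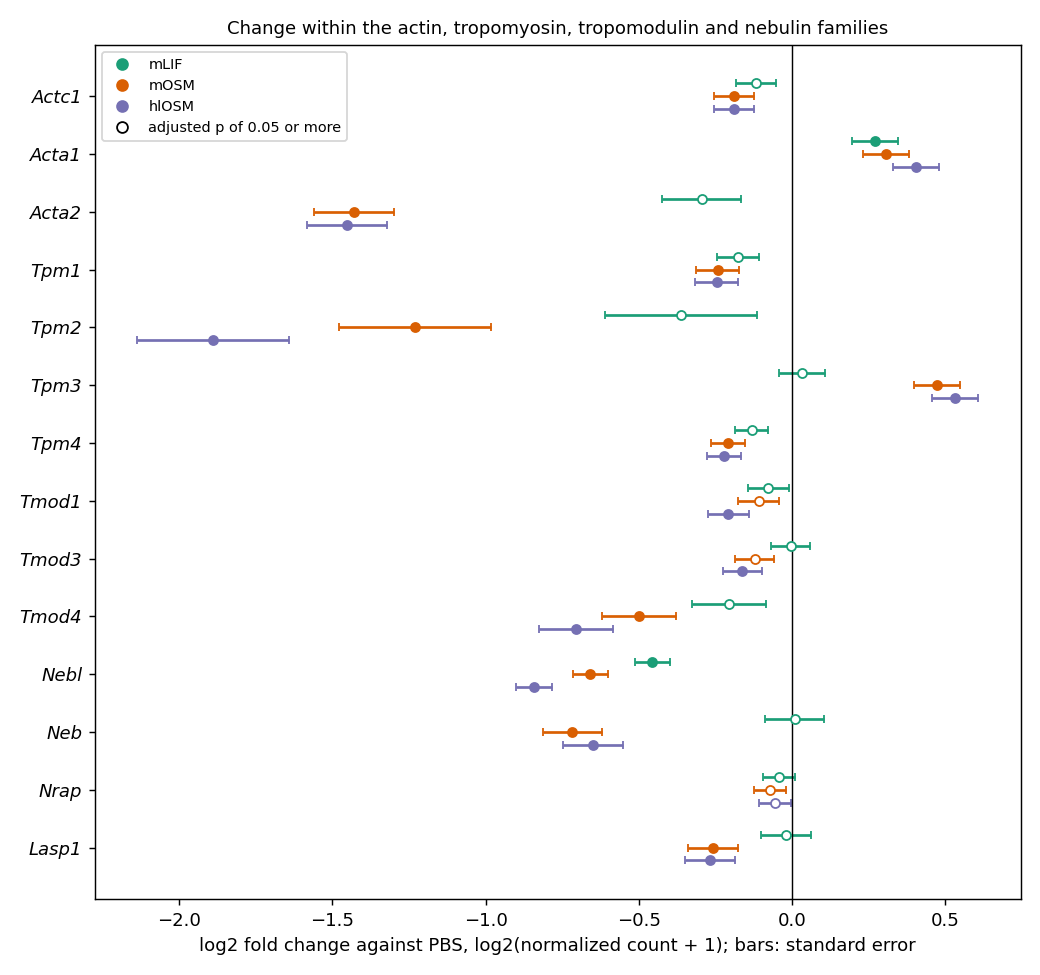
Log2 fold change against PBS (points, 3 libraries per condition; bars, standard error; log2(normalized count + 1) scale) for relatives of the thin filament genes with a mean of at least 50 normalized counts, beside Actc1, Tpm1, Tmod1 and Nebl; filled points passed an adjusted p under 0.05. Acta1 lies above 0 with all 3 cytokines and Tpm3 with mOSM and hlOSM, while Acta2 and Tpm2 lie below −1 with mOSM and hlOSM.

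Genes for assembly and capping of actin filaments were counted next. Of 12, 2 were lower and 1 higher with mLIF, 4 lower and 3 higher with mOSM, and 4 lower and 3 higher with hlOSM, with medians of −0.08, 0.001 and −0.004. In the same order, 4.44%, 15.8% and 19.8% of all genes were lower and 5.47%, 15.4% and 18.2% higher. With the replicate number in the fit, 1 was lower and 0 higher with mLIF, and 4 lower and 0 higher with mOSM. With hlOSM, Fhod3, a formin that builds cardiac myofibrils, had the largest decrease (−0.62 ± 0.065, adjusted p = 1.17e-07) and Capza1, a subunit of the barbed-end cap, the largest rise (0.37 ± 0.10, adjusted p = 0.00756).

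Most thick filament genes were lower with mOSM and with hlOSM. Of 11 tested, 4, 8 and 8 were lower with mLIF, mOSM and hlOSM and none was higher, with medians of −0.19, −0.31 and −0.37. Mylk3, the cardiac myosin light chain kinase, had the largest decrease with hlOSM (−1.06 ± 0.080, adjusted p = 8.78e-10). Of 12 genes of titin and the Z-disc, 4, 8 and 7 were lower and 0, 2 and 2 higher, with medians of −0.11, −0.25 and −0.27. Ldb3, a Z-disc scaffold, had the largest decrease with hlOSM (−1.03 ± 0.058, adjusted p = 8.14e-12) and Csrp3, a sensor of stretch at the Z-disc, the largest rise (0.23 ± 0.061, adjusted p = 0.00567). Beside both lists, 4.44%, 15.8% and 19.8% of all genes were lower in the same order, and 5.47%, 15.4% and 18.2% higher.

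Other cardiomyocyte genes were also counted. Of 10 markers of calcium handling, metabolism and excitation, 2, 3 and 4 were lower and 0, 1 and 1 higher, with medians of −0.11, −0.16 and −0.15. Of all genes, 4.44%, 15.8% and 19.8% were lower with mLIF, mOSM and hlOSM, and 5.47%, 15.4% and 18.2% higher. Whether these lists differ from the thin filament genes was not tested. Markers of other cell types stood beside these changes, and the same shares of all genes apply to their counts. The endothelial list summed to 1142 to 1213 normalized counts with PBS, 1147 to 1207 with mLIF, 1404 to 1619 with mOSM and 1411 to 1531 with hlOSM, and 5 of its 7 genes were higher with mOSM and with hlOSM. The fibroblast list of 7 summed to 2023 to 2259 with PBS, 1886 to 2013 with mLIF, 2222 to 2621 with mOSM and 2106 to 2346 with hlOSM. Its genes went in both directions, with 3 lower and 2 higher for mOSM and 4 lower and 3 higher for hlOSM. The macrophage list summed to 282 to 302, 264 to 315, 325 to 369 and 305 to 372 in the same order. Of its 4 tested genes, Cd68, named after its values were seen, was higher in each comparison with PBS (means of 53.7, 81.3, 125 and 132 normalized counts), and none of the others was higher, while Lyz2 was lower with hlOSM (−0.27, adjusted p = 0.0163). The atrial list summed to 249 to 266, 219 to 241, 181 to 246 and 197 to 207. The part of other cell types in the thin filament levels was not tested.

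**Figure D5:**
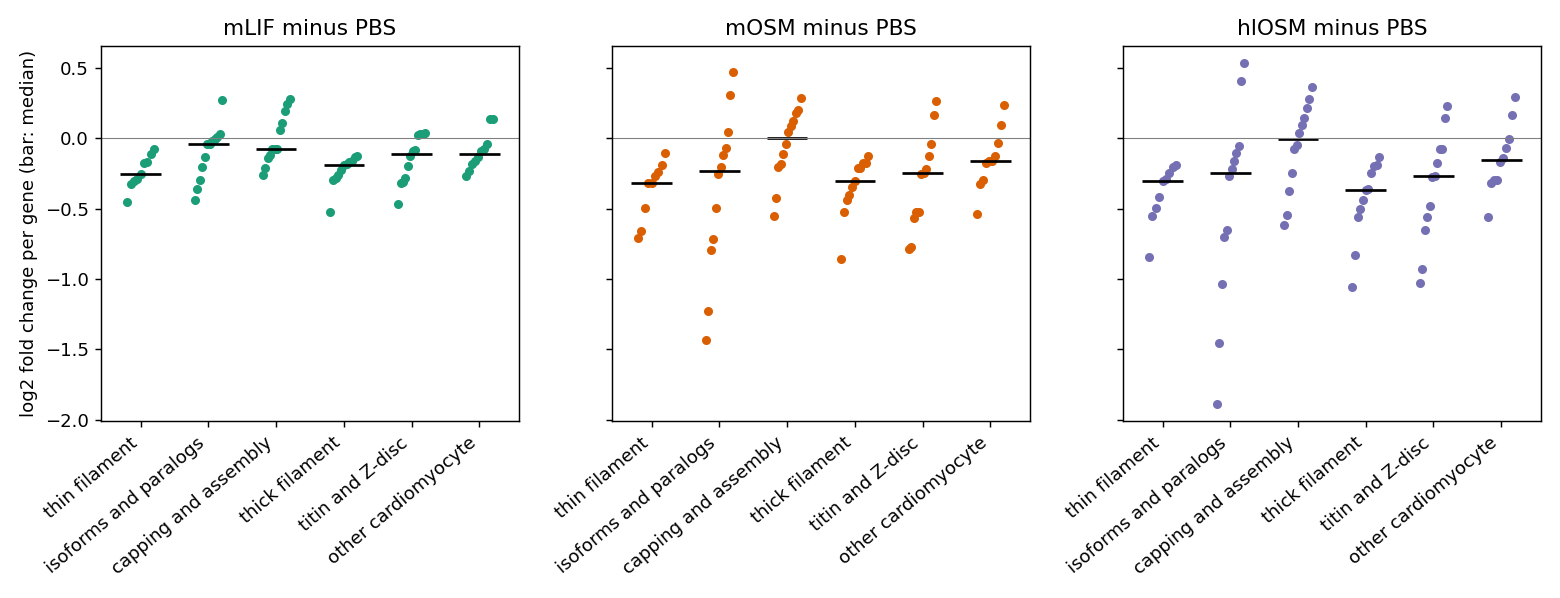
Log2 fold change of each tested gene against PBS (points; log2(normalized count + 1) scale) with the median (bar) for the 9 thin filament genes, 12 isoforms and paralogs, 12 capping and assembly genes, 11 thick filament genes, 12 genes of titin and the Z-disc and 10 other cardiomyocyte markers, with 1 panel per cytokine. All thin filament and thick filament points lie below 0 in each panel, while the other lists reach above 0.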

How the data were processed

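Gene expression was measured by RNA sequencing of 12 libraries, whose titles give the condition and the replicate number. The submitters' processing notes name FastQC, STAR 2.7.7a, featureCounts 1.6.5 and mm10. The values deposited by the authors are scores on a normalized count scale, rounded to whole numbers, whose normalization is not given in the sources used here, and neither counting errors nor a count model were applied. Log2(normalized count + 1) was tested with limma 3.58.1 in R 4.3.3 (lmFit, eBayes with a mean-variance trend), with all 12 libraries in a single fit, for the 13184 genes that reached 10 in 3 or more libraries. Two-sided p-values were adjusted by Benjamini-Hochberg over all tested genes and called under 0.05, and 95% intervals are those of limma. Fold changes on this scale understate the changes of low genes. Shares used the exonic length of GENCODE vM21 and exact permutation tests (scipy 1.17.1, Python 3.11.15). The fit was run on simulated data with independent noise in each library. No replicate effect was taken out of those data, so that the check does not cover such an effect.

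The thin filament genes and all lists were chosen with earlier results of these data known. Named were all 10 genes, relatives with a mean of at least 50 normalized counts, and the largest rise and fall with hlOSM in the capping, thick filament and Z-disc lists. Over 6 pairs of conditions, libraries with the same replicate number deviated in opposite directions. The replicate number held 1.70% of the spread within conditions over all tested genes, where 25% would be held without any effect. For 6626 genes with a mean of at least 100 normalized counts, replicate 3 minus replicate 1 was averaged over conditions. The SD of this difference over genes was 0.0019 on the log2 scale, so that it was nearly the same for every gene. An effect of the replicate number may therefore have been taken out of the deposited values gene by gene. A fit with 8 residual degrees of freedom could then count 2 too many, and a fit with the replicate number, with 6, is given under the dependence on processing.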

Additional observations from a re-analysis of the deposited data

How the results depend on the processing

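Against PBS, 9 of 9 thin filament genes kept a negative log2 fold change in every alternative run. Of the 26 calls in the comparisons between conditions, all 26 held with a pseudocount of 0.1 or 5, a filter at 50, trimmed-mean scaling or robust variances, 25 with quantile scaling or with only the 6 libraries compared, and 24 without a filter. Without the mean-variance trend 12 held, and the counts of lower genes were 1 with mLIF, 5 with mOSM, 5 with hlOSM, 0 for mOSM against mLIF and 1 for hlOSM against mLIF. The cause was not tested. A minimum of 1.5-fold left 3 calls, with counts of 0, 2, 1, 0 and 0 in the same order. With each library left out in turn the counts ranged from 1 to 5 (mLIF), 5 to 8 (mOSM), 6 to 9 (hlOSM), 1 to 4 (mOSM against mLIF) and 2 to 2 (hlOSM against mLIF). Deviations of libraries with the same replicate number had correlations between −0.357 and −0.218. A replicate effect taken out of the values would also give negative correlations, so these cannot show whether the numbers pair the libraries. When the replicate number entered as a block, the counts were 4, 8, 9, 2 and 2, and Tnnt2 for mOSM against mLIF was the call lost (adjusted p = 0.059). Over all 13184 tested genes, lower calls in the same order were 337, 1682, 2178, 542 and 878 with the block. In the main fit they were 586, 2089, 2609, 760 and 1216. In the other lists against PBS, the block ended the calls of Lasp1 with mOSM and Tmod3 with hlOSM. It moved the higher capping genes from 3 to 0 with mOSM and from 1 to 0 with mLIF, and the lower ones with mLIF from 2 to 1. With mLIF it also moved the lower thick filament genes from 4 to 3, cardiomyocyte markers from 2 to 0 and fibroblast markers from 1 to 0. With hlOSM the higher Z-disc genes went from 2 to 1, fibroblast markers from 3 to 2 and endothelial markers from 5 to 4. The Tnni1 share was 0.51 percentage points higher with mLIF than with PBS, and 0.89 when not divided by length. Differences in the shares were also recomputed with the longest transcript, chosen after seeing the data, and moved by less than the spread. Low values limit statements on Tnni1, and 3 libraries per condition allow no exact p under 0.1.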
